A study of Mus musculus with 24 samples.

Results

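The genes described here are the nuclear-encoded genes of the mitochondrial respiratory chain. They were taken as the protein-coding genes of the mouse GRCm38/mm10 annotation whose symbols start with Nduf, Sdh, Uqcr or Atp5, or with Cox and a digit from 4 to 8. The rule found 98 annotation entries with 97 symbols among 21938 protein-coding genes, and 86 of the 97 had at least 1 protein-protected site (PPS) on their exons on their own strand. Over all protein-coding genes, 9550 had an exonic PPS. By complex, an exonic PPS was present on 37 of 38 genes of complex I, 4 of 4 of complex II, 8 of 8 of complex III, 13 of 18 of complex IV, 14 of 17 of complex V and 10 of 12 assembly factors that share the symbols. Genes were placed in complexes from their symbols, which puts Ndufa4 in complex I. The extra entry, a read-through Atp5o model on chromosome 16, lay wholly within exons of Atp5o and its neighbour Donson and was left out.

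The sites came from protein interaction profile sequencing (PIP-seq) of MEL cells, a mouse erythroleukemia line that DMSO drives towards red blood cells, sampled undifferentiated (day 0) and after 2 and 4 days of DMSO. All cells were crosslinked with formaldehyde, and for each of 2 replicates a day there were 4 libraries: footprinting (proteins left on the RNA) or structure-only (proteins digested away first), each treated with a nuclease for single-stranded RNA (ssRNase) or for double-stranded RNA (dsRNase). These 24 libraries form 12 groups of 2, and each footprinting library was set against its structure-only library to give 12 sets of PPS calls, which the deposited lists merge into 1 list per day that names the calls behind each PPS. The cells are an established leukemia line, and the labels do not say whether replicates were separate cultures.

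The respiratory chain passes electrons from NADH (complex I) and succinate (complex II) through coenzyme Q to complex III, then through cytochrome c to complex IV, which reduces oxygen, and the proton gradient so built drives ATP synthesis by complex V. Most subunits are encoded in the nucleus, translated in the cytosol and imported, while a few membrane core subunits are encoded in mitochondrial DNA and are not among these genes. Maturing erythroid cells depend on mitochondria for heme synthesis and lose them at the end of their differentiation.

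The lists held 138689, 169575 and 152513 PPSs at days 0, 2 and 4. PPSs of 20 to 40 nt, the size a ribosome protects, were left out, after which 114907, 119487 and 122038 remained. The call totals were uneven: replicate 1 and replicate 2 of the dsRNase gave 34589 and 41265 calls at day 0, 41323 and 20927 at day 2, and 68632 and 52174 at day 4, whereas the ssRNase gave 54229 to 91091. Read depth is unknown from these lists, and no test with a p-value was made, since 2 values against 2 cannot give a two-sided exact p below 0.333. All 12 erythroid marker genes carried exonic PPSs, and their mean exonic coverage was 13.6%, 25.7% and 42.5% at days 0, 2 and 4. Of the 13 markers of macrophages, T cells, B cells and fibroblasts, 1 (Cd68, at day 2) had a PPS.

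A few high-scoring coding sites of each complex are printed to show what was measured, and which part of a site was also protected on the other day. Each lies wholly in coding sequence, is read 5′ to 3′ on the strand of the gene in GRCm38/mm10, and has in capitals the bases that also lay in a PPS of the other of days 0 and 4. They are the day 0 site in the middle of Ndufb3 (chr1:58591115-58591245, plus strand, 131 nt, score 23.29), the day 4 site that begins at the start codon of Ndufb6 (chr4:40279238-40279337, minus strand, 100 nt, score 42.13), the day 0 site of Sdha (chr13:74334299-74334400, minus strand, 102 nt, score 23.48), the day 0 site of Uqcrfs1 (chr13:30540923-30541158, minus strand, 236 nt, score 50.54), the day 0 and day 4 sites of Cox7b (chrX:106019582-106019680 and chrX:106019584-106019696, plus strand, 99 and 113 nt, scores 16.35 and 25.35), the day 0 site of Atp5j (chr16:84828438-84828544, minus strand, 107 nt, score 21.81) and the day 4 site of Atp5s (chr12:69741700-69741808, plus strand, 109 nt, score 22.57).
Ndufb3, day 0: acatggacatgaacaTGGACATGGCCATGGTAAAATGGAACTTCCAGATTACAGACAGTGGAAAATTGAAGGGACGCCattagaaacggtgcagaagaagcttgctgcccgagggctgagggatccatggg
Ndufb6, day 4: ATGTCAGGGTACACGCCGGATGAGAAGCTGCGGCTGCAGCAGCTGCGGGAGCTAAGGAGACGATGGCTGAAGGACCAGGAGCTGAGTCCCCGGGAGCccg
Sdha, day 0: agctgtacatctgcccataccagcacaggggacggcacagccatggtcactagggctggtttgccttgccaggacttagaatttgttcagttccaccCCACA
Uqcrfs1, day 0: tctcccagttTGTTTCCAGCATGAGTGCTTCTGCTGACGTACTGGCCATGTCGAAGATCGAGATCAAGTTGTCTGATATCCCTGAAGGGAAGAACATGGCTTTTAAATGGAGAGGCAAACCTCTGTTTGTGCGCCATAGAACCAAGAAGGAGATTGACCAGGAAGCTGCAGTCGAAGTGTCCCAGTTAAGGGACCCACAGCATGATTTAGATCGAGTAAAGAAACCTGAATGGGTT
Cox7b, day 0: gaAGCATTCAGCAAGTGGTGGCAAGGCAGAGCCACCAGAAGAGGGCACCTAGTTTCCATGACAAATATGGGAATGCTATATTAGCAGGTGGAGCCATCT
Cox7b, day 4: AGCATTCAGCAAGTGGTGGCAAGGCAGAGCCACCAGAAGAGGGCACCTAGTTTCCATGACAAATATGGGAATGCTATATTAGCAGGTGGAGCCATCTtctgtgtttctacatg
Atp5j, day 0: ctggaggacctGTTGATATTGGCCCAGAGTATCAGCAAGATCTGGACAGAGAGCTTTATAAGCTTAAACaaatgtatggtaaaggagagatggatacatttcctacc
Atp5s, day 4: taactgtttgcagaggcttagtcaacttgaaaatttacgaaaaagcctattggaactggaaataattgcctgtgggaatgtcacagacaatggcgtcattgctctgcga
The Uqcrfs1 site kept 226 of its 236 nt in a day 4 site, and the Cox7b site kept 97 of 99. The day 0 sites of Ndufb3 and Atp5j shared 63 of 131 and 58 of 107 nt with a day 4 site, the Sdha site 5 of 102, and the Atp5s site had no base in a day 0 site.

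Respiratory chain genes had a larger share of their exonic sequence protected than all genes, by the median, at every day. The median exonic coverage, the percentage of a gene's exonic nt inside a same-strand PPS of the day, was 12.9%, 9.09% and 13.9% at days 0, 2 and 4 over the 86 genes, against 6.0%, 5.59% and 6.02% over all 9550 genes. In replicates 1 and 2 taken alone, it was 8.34% and 8.52% at day 0, 6.74% and 6.97% at day 2, and 11.3% and 9.87% at day 4. A replicate's value counts only PPSs with a call from that replicate, so it lies at or below the value of the whole day. These are short genes, and short genes as a class were covered more densely: over 1174 other genes of at most 2000 exonic nt the medians were 9.78%, 8.28% and 8.43%, against 14.7%, 12.8% and 15.8% over the 52 respiratory chain genes of that length. A PPS needs reads, so more message and more protein on each message cannot be told apart in these cells, nor can fewer expressing cells and less RNA per cell.

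In the whole-day lists the mean coverage of the 86 genes differed from day 0 by -2.12 points at day 2 and by 1.49 points at day 4. Over the 4 pairs of a later and an earlier replicate, the mean difference ran from -1.67 to -1.34 points at day 2 and from 1.04 to 2.80 points at day 4. Without Cox6b2, the gene with the largest change, left out after the values had been seen, the day 4 difference was 0.805 points with pairs from 0.438 to 2.13. Over all genes the day 4 difference was 0.0468 points, with pairs from -0.171 to 0.836, and over the other short genes it was -1.42 points, with pairs from -2.02 to 0.60. So the day 4 level lay above the day 0 level in every pair for the respiratory chain genes, and on both sides of 0 for the other short genes. No test compares these sets.

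The complexes differed in level and in course. Complex IV, cytochrome c oxidase, had the highest medians, 16.9%, 17.5% and 23.4% at days 0, 2 and 4, and its 13 genes stood 7.24 points above day 0 at day 4 on average, with pairs from 6.84 to 9.41. That mean rests largely on Cox6b2: over the other 12 genes it was 2.89 points, with pairs from 3.05 to 5.25, and the median change of the 13 was 2.21 points, with pairs from 0.53 to 8.04. Replicates count only their own calls, so pairs need not lie around the whole-day value. Complex III, the cytochrome bc1 complex, followed with medians of 14.3%, 11.7% and 19.2%. Complex I, the NADH dehydrogenase, had 12.7%, 11.7% and 14.1%, and its mean difference at day 4 was 0.00233 points with pairs from -1.20 to 1.43. Ndufa4 was placed in complex I by its symbol, and values with it in complex IV were not computed. Complex II, succinate dehydrogenase, had medians of 13.3%, 7.33% and 13.5%, and complex V, the ATP synthase, had 13.5%, 8.36% and 14.2%. The 10 assembly factors, which help build the complexes and are not part of them, were low throughout, at 1.60%, 2.79% and 1.63%. Of 8 isoforms known from other tissues, such as the muscle subunits Cox6a2, Cox7a1 and Cox8b, only Cox6a2 and Cox6b2 had an exonic PPS, and Cox6a2 had it in 1 of the 12 call sets (10.1% of its exonic nt, dsRNase replicate 1 at day 0).

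**Figure D1:**
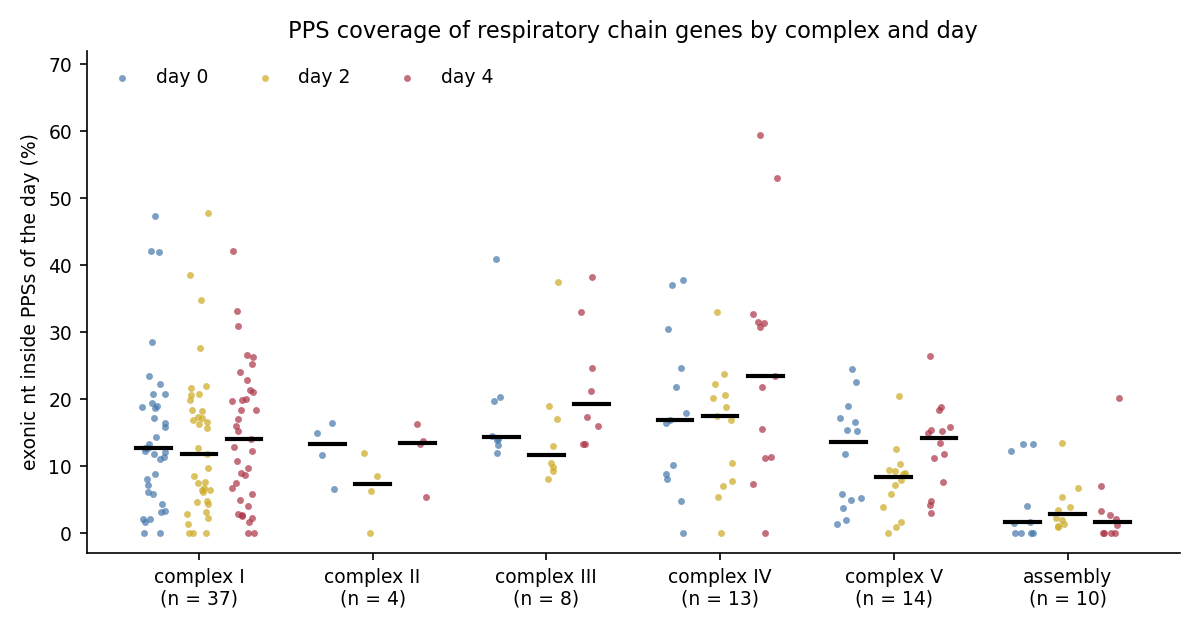
Exonic PPS coverage (percentage of exonic nt) of each respiratory chain gene at days 0, 2 and 4, by complex, with the medians marked. Complex IV has the highest median at day 4, 23.4%, and the assembly factors the lowest, 1.63%.

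Single genes were called higher or lower between days when the 2 replicate values of a day did not overlap those of the other day and the nearest pair differed by at least 5 points. From day 0 to day 4, 10 of 83 genes with a site on either day were called higher and 9 lower, or 12% and 10.8%. Over all genes 8.55% were called higher and 7.3% lower. Among genes of at most 2000 exonic nt the shares were 12.4% and 14.6%, against 16.0% and 16.0% of the respiratory chain genes of that length. So neither count stands apart from its background. By complex, 5 of the 10 higher genes belonged to complex IV (Cox4i1, Cox6b1, Cox6b2, Cox7a2l and Cox7c), 3 to complex V (Atp5e, Atp5h and Atp5s), 1 to complex III (Uqcrb) and 1 to complex I (Ndufb8). The lower genes were 4 of complex I (Ndufa12, Ndufb3, Ndufb6 and Ndufc2), 2 of complex IV (Cox7b and Cox8a), 2 of complex V (Atp5g2 and Atp5g3) and the assembly factor Ndufaf8. The counts rest on few libraries. A gene must clear the threshold in every pair of replicates, so leaving a replicate out can only keep or raise a count. Without replicate 1 of day 0 the higher genes numbered 16, and without replicate 2 of day 4 they numbered 23. Without replicate 1 of day 4 the lower genes numbered 14. Merged PPSs have the same borders in both replicates, so the spread between replicates is understated in all of these values.

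From day 0 to day 2 the calls went mostly downwards, 3 genes higher (Atp5d, Ndufb6 and Uqcr11) and 12 lower of 85, against 2.89% and 8.24% of all genes, and 8.14% and 13.7% of short genes. Complex V, with 5 of the 12, held the most. From day 2 to day 4 the calls went mostly upwards, 16 higher and 2 lower (Ndufb6 and Uqcr11) of 84, against 9.45% and 2.86% of all genes, and 13.8% and 10.0% of short genes. The share of members called was 14.1% for the day 2 fall and 19.0% for the later rise. Among members of at most 2000 exonic nt, 5.88% were called higher and 19.6% lower at day 2. From day 2 to day 4 their shares were 26.0% higher and 4.0% lower. These comparisons share the day 2 lists, in which dsRNase replicate 2 had the fewest calls of the 12 sets. The length filter also took the most at day 2. PPSs of 20 to 40 nt were 26.7%, 35.2% and 24.9% of the exonic PPSs of these genes at days 0, 2 and 4. Over all genes they were 21.7%, 32.7% and 21.7%. Without replicate 1 or 2 of day 0 the day 2 counts became 8 and 6 higher and 19 and 20 lower. Without replicate 1 or 2 of day 2 the higher genes numbered 8 and 7. The rule allows no other direction for these shifts, since fewer pairs must clear the threshold.

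**Figure D2:**
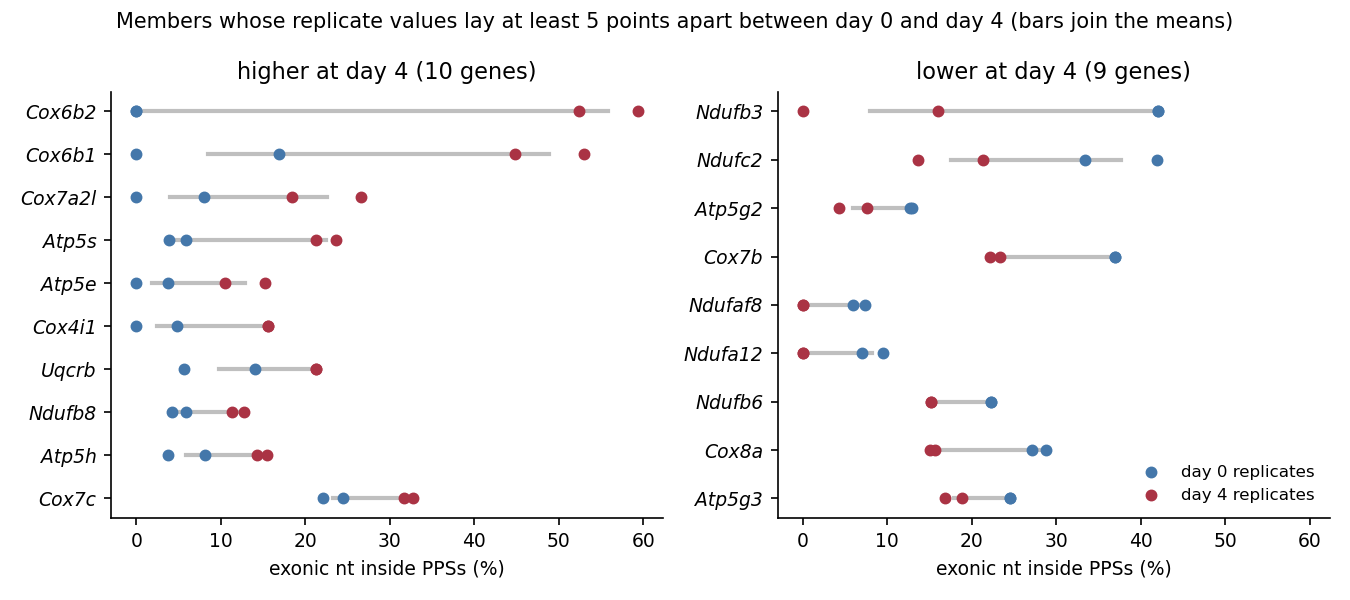
Exonic PPS coverage (percentage of exonic nt) in each replicate at days 0 and 4 for the 10 respiratory chain genes called higher and the 9 called lower at day 4. Cox6b2 and Cox6b1 reach the highest day 4 values, and Ndufb3 spans the widest fall.

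In complex I, which takes electrons from NADH, the largest changes were of accessory subunits around the catalytic core. Ndufb3, a membrane arm subunit (chr1:58586384-58595964), had 42.1% of its 763 exonic nt covered in both replicates at day 0, 21.6% and 14.4% at day 2, and 16.0% and 0% at day 4, a fall with pairs from -42.1 to -26.1 points. Of its 30-nt words, 30.8% recur elsewhere in the genome, so reads of near copies could bear on it. The Ndufb3 message had 4 sites at day 0, spread from upstream of the start codon to the 3′ UTR, and 2 at day 4, both with calls of 1 replicate.

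Ndufc2, also of the membrane arm, fell from 33.4% and 41.9% at day 0 to 17.2% in both replicates at day 2 and 21.4% and 13.7% at day 4. Ndufa12, an accessory subunit, went from 6.95% and 9.5% to 0 in both day 4 replicates. Ndufb6 took another course, with 22.3% in both replicates at day 0, 47.8% and 30.2% at day 2, and 15.2% in both at day 4. Its replicates did not overlap between any pair of days. Ndufb8 was called higher, from 4.26% and 5.88% to 11.3% and 12.8%, and its day 4 coverage came from the dsRNase alone.

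Ndufa6 (18.9% and 3.83% at day 0, 29.3% and 22.5% at day 4) showed a large difference between days but also between its day 0 replicates, and was not called. Ndufa8 had the highest whole-day coverage of all 86 genes at day 0, 47.4%, against 42.2% at day 4, while its replicates gave 30.1% and 28.1% at day 0 and 30.1% and 35.8% at day 4. The whole-day and replicate values of Ndufa8 thus differ in direction. Catalytic core subunits went either way in the whole-day lists: Ndufs3 stood at 12.7% at day 0 and 21.1% at day 4, Ndufv1 at 14.3% and 18.3%, and Ndufv2 at 11.3% and 17.1%, whereas Ndufs7 stood at 19% and 8.67%. Ndufs1 and Ndufs8 differed by less than 1 point. None of these 6 was called between days 0 and 4.

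The top-scoring site of any respiratory chain message at days 2 and 4 was on Ndufs4, a complex I subunit whose loss causes Leigh syndrome. At day 2 it was 332 nt long (chr13:114361249-114361580, minus strand) with a score of 72.55, and at day 4 447 nt long (chr13:114361149-114361595) with a score of 66.04, from 7 ssRNase calls and no dsRNase call on each day. The Ndufs4 site overlapped an exon of an alternative protein-coding transcript, Ndufs4-205 (chr13:114360768-114361545), in 297 of its 332 nt. The top site of day 0, on Atp5g3 (chr2:73908475-73908707, minus strand, 233 nt, score 52.23), had instead 5 dsRNase calls and no ssRNase call. Summed scores grow with the number of merged calls.

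Complex II has 4 subunits, of which Sdha binds succinate, Sdhb carries iron-sulfur clusters, and Sdhc and Sdhd anchor both in the membrane. None of the 4 was called between days 0 and 4. Sdhd had 10.2% and 10.5% at day 0, 4.14% and 4.31% at day 2, and 4.63% and 9.10% at day 4, and was called lower at day 2. Sdhb had 11.7% and 2.68% at day 0, no exonic site at day 2, and 6.21% and 9.96% at day 4. Sdha, with the most exonic nt of the 4, had 6.18% and 12.5% at day 0 and 15.8% and 8.75% at day 4, and the replicates of these days overlapped. Sdhc stayed between 3.17% and 6.65% in every replicate.

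In complex III the Rieske iron-sulfur protein Uqcrfs1 (chr13:30540308-30545362) had the highest coverage at day 0. Its replicates stood at 36.6% and 29.9% at day 0, 19.0% in both at day 2, and 38.2% and 34.3% at day 4. The day 2 values lay below all others, and the day 0 and day 4 values overlapped. Uqcrb, a small subunit near the quinone site, was called higher, from 5.59% and 14.0% at day 0 to 21.2% in both replicates at day 4, all from dsRNase calls, with 41.6% of its 30-nt words found elsewhere in the genome. Uqcr10 had 13.2% in both replicates at day 0, 0% and 8.05% at day 2, and 24.7% and 16.1% at day 4. Uqcr11 went the other way at day 2, with 20.3% and 11.5% at day 0, 34.8% and 28.2% at day 2, and 21.8% and 11.2% at day 4.

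Complex IV held the largest differences. Cox6b1, which lies on the intermembrane face (chr7:30616861-30626151), had 0% and 16.9% of its exonic nt covered at day 0, 22.3% and 13% at day 2, and 53.0% and 44.8% at day 4, a rise of 27.8 to 53.0 points over the pairs. At day 4 its dsRNase coverage was 41.4% and 33.2% and its ssRNase coverage 11.6% in both replicates. Its day 4 sites ran along the message from the 5′ UTR past the stop codon, 5 sites where day 0 had 2. Cox7a2l, which joins complexes III and IV into a supercomplex, rose from 8.05% and 0% to 18.5% and 26.6%, but 53.7% of its 30-nt words occur elsewhere, the highest share of the 86 genes.

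Cox4i1, the regulatory subunit that binds ATP, rose from 4.84% and 0% to 15.5% in both replicates, and Cox7c from 22.1% and 24.5% to 32.7% and 31.7%. Cox7b, on the X chromosome, fell from 37.0% in both replicates at day 0 to 18.5% and 12.9% at day 2 and 22.2% and 23.4% at day 4. Its coding sites were kept, as the printed sequences show, while the site before the start codon, present at day 0 with calls of both nucleases and both replicates, had none at day 4. Cox8a fell from 28.8% and 27.1% to 15.7% and 15.0%, all day 4 coverage being dsRNase. Its whole-day difference of -7.11 points becomes 11.5 points when PPSs of 20 to 40 nt are kept.

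The largest change was of Cox6b2, known as the testis form of Cox6b1 (chr7:4751792-4753094, minus strand). It had no PPS at day 0, 0% and 5.42% at day 2, and 59.4% and 52.3% at day 4. The day 4 coverage was 52.3% in both ssRNase replicates and 29.6% and 0% in the dsRNase replicates. Of the covered exonic nt, 76.0% lay outside the transcript with the longest coding sequence, of which 40.4% was covered, and a 290-nt site (chr7:4752162-4752451) lay wholly in an exon of Cox6b2-205, which is annotated as a retained intron. The intronic nt of the gene were few, 195, and 73.8% of them were covered in both day 4 replicates. Its neighbours are Fam71e2 on the same strand and Kmt5c on the opposite strand.

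Complex V has a rotating ring of c subunits, coded by Atp5g1, Atp5g2 and Atp5g3 as the same mature protein, a catalytic head and stalks. Atp5s, known as coupling factor B (chr12:69724950-69744660), rose from 5.89% and 3.87% at day 0 through 7.45% and 7.41% at day 2 to 23.7% and 21.3% at day 4, with both nucleases contributing. Atp5e, the epsilon subunit of the head, rose from 0% and 3.70% to 15.3% and 10.5%, and Atp5h, of the peripheral stalk, from 3.75% and 8.12% to 14.3% and 15.4%.

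Of the ring genes, Atp5g2 and Atp5g3 were called lower at day 4 and Atp5g1 was not called. Atp5g2 fell from 12.9% and 12.7% at day 0 to 2.63% and 6.15% at day 2 and 4.30% and 7.64% at day 4. Atp5g3 fell from 24.5% in both replicates to 11% and 18.1% and then 18.9% and 16.9%. Atp5g1 had 3.89% and 2.02% at day 0 and 2.22% and 2.16% at day 4. Of their 30-nt words, 33.8% in Atp5g2 and 30.9% in Atp5g1 were found elsewhere, against 0.242% in Atp5g3, and 75 exonic nt of Atp5g2 overlap the microRNA gene Mir688. The Atp5g2 difference turns to a gain of 1.25 points when only PPSs with calls of both replicates are used. Atp5a1, Atp5b and Atp5c1 of the catalytic head had no PPS on either strand on any day, and nothing is read from that here.

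Among the assembly factors, Ndufaf8 had 6.0% and 7.31% at day 0 and no site at day 4, with different sites in its 2 day 0 replicates, and was called lower. Ndufaf4 had 10.8% and 7.23% at day 0, 1.36% and 0% at day 2, and 3.31% and 1.56% at day 4, and Ndufaf1 had 8.26% and 12.2% at day 0 and 20.1% and 12.7% at day 4. Neither was called between days 0 and 4. All of these act on complex I.

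**Figure D3:**
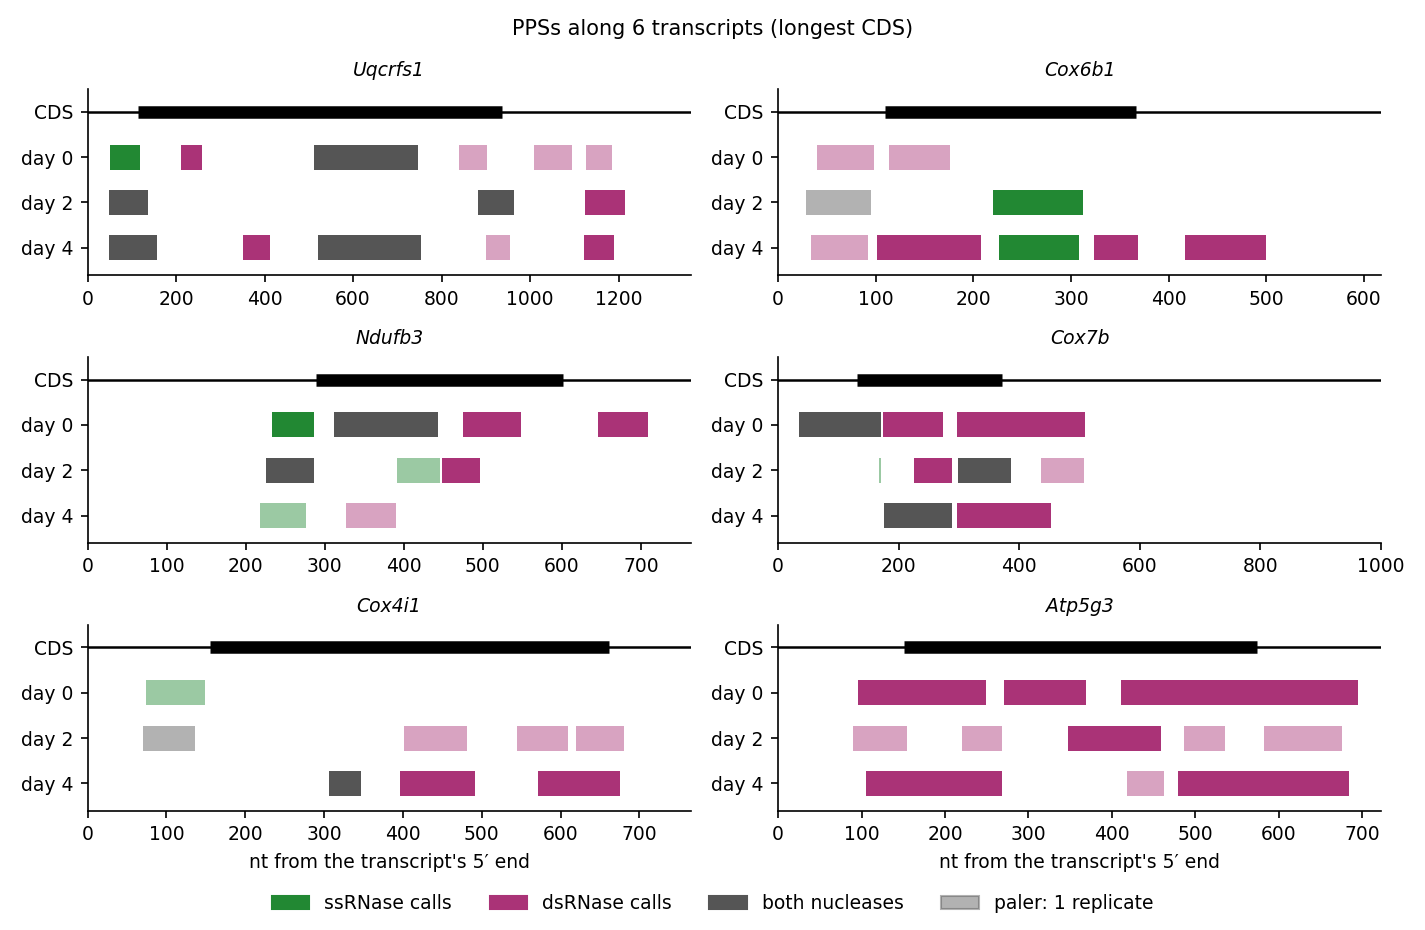
PPSs along the longest coding transcript of Uqcrfs1, Cox6b1, Ndufb3, Cox7b, Cox4i1 and Atp5g3 at days 0, 2 and 4, in nt from the transcript start, with the coding sequence marked, colours for the nuclease of the calls and paler bars for calls of 1 replicate. Cox6b1 gains sites at day 4 and Ndufb3 loses them, while the Uqcrfs1 site in the coding sequence is present at days 0 and 4.

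Mean protection of these messages was higher with the dsRNase, the nuclease that leaves single-stranded RNA, than with the ssRNase. At day 0 the mean dsRNase coverage of the 86 genes was 7.58% and 8.22% in replicates 1 and 2, and the mean ssRNase coverage 3.93% and 3.62%. At day 2 the dsRNase values were 6.11% and 5.45% and the ssRNase values 4.47% and 4.33%. At day 4 the dsRNase values were 11.1% and 8.68% and the ssRNase values 3.78% and 3.95%. The dsRNase coverage was therefore above the ssRNase coverage in all 6 replicates, lowest at day 2 and highest at day 4, while the ssRNase coverage moved by less than 1 point. A merged PPS with calls of both nucleases counts in full for each, so these values are not independent. At days 0, 2 and 4, 4465, 4219 and 5192 exonic nt lay in such PPSs. PPSs with ssRNase calls only held 3984, 4813 and 2995 nt, and those with dsRNase calls only 11420, 7240 and 13998 nt. Over all genes the dsRNase values were 3.66% and 4.18%, 3.05% and 2.03%, and 4.96% and 3.95%, and they lay above the ssRNase values in 3 of 6 replicates. Over the other short genes the dsRNase coverage was 1.41 and 1.84 times the ssRNase coverage at day 0, 0.865 and 0.92 times at day 2, and 1.86 and 1.56 times at day 4, against 1.93 and 2.27, 1.37 and 1.26, and 2.95 and 2.2 times for the respiratory chain genes. The dsRNase lay above the ssRNase in 6 of 6 replicates for the TCA cycle genes and in 5 of 6 for the mitochondrial ribosomal protein genes, so the order is not particular to the respiratory chain. The dsRNase call totals were also highest at day 4, and the part of the totals in these values was not tested. Cutting the longer lists down to the size of the shortest, by score, moved the excess of dsRNase over ssRNase coverage by less than its replicate spread. That cut evens the number of merged PPSs per day and not the calls of each nuclease. It therefore cannot decide the part of the call totals.

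The excess, in the whole-day lists, was 5.56, 1.82 and 7.69 points at days 0, 2 and 4. Leaving out replicate 2 of day 0 gave 3.65 points, leaving out replicate 1 of day 2 gave 1.12, and leaving out replicate 1 of day 4 gave 4.74. Counted by gene in replicates 1 and 2, dsRNase coverage was the higher in 47 and 52 genes and the lower in 22 and 16 at day 0, and the higher in 62 and 56 and the lower in 9 and 15 at day 4. At day 2 it was the higher in 47 and 32 and the lower in 22 and 35, so in replicate 2 of day 2 more genes had the higher coverage with the ssRNase. Counted by site, 77.6% of 286 exonic PPSs at day 0 had a dsRNase call (95% Wilson interval 72.4 to 82.1, counting error only), 65.9% of 267 at day 2 (60.04 to 71.3) and 84.9% of 311 at day 4 (80.5 to 88.4). Over all genes the shares were 59.7%, 46.8% and 68.3%.

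**Figure D4:**
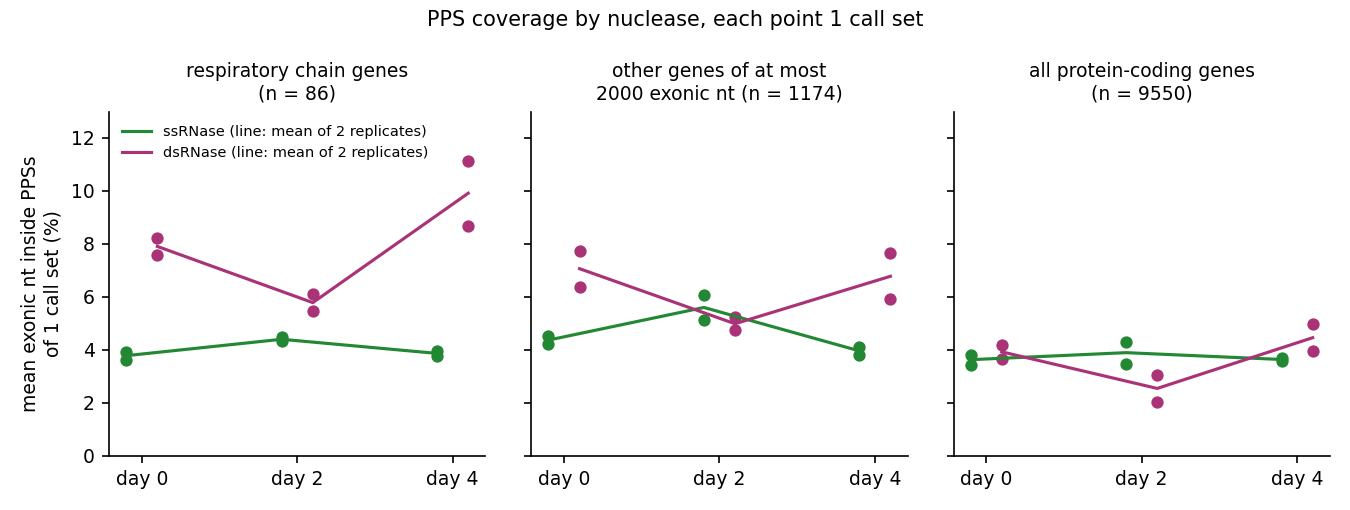
Mean exonic coverage (percentage of exonic nt) from ssRNase and from dsRNase calls in each replicate at days 0, 2 and 4, for the 86 respiratory chain genes, the other short genes and all genes with an exonic PPS. The dsRNase points of the respiratory chain genes run from 5.45% to 11.1%, above every ssRNase point of theirs.

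With the calls of each nuclease taken alone, the day 4 dsRNase lists gave 12 genes higher and 6 lower than day 0 of 82, against 5.63% and 3.79% of all genes, and the ssRNase lists 4 higher and 4 lower of 71, against 4.5% and 4.6% of all genes and 8.3% and 10.5% of short genes. Among short genes the day 4 dsRNase shares were 11.5% and 10.4%, against 20% and 10% of the short members. From day 0 to day 2, 2 were higher and 13 lower of 82 with the dsRNase, against 0.569% and 6.5%, and from day 2 to day 4, 19 were higher and 1 lower of 81, against 8.62% and 0.665%. Among short genes these dsRNase shares were 2.91% and 15.6%, and then 15.1% and 3.62%. For the short members they were 4.08% and 22.4%, and then 29.2% and 2.08%. With the ssRNase, 2 genes (Cox6b1 and Ndufa8) were higher and 0 lower of 78 at day 2, against 2.44% and 2.62% of all genes and 7.68% and 4.13% of short genes. From day 2 to day 4 the ssRNase gave 3 higher (Atp5s, Cox6b2 and Uqcrfs1) and 5 lower of 75, against 2.65% and 2.72% of all genes and 4.58% and 9.06% of short genes. The dsRNase set added Cox5a, Cox7b, Ndufa1, Ndufa2, Ndufa10, Ndufb9 and Ndufs3 to the genes that rose from day 2, none of which was called with all calls pooled. Cox7a2, a complex IV subunit, showed both courses at once: its dsRNase coverage went from 10.9% and 15.8% at day 0 to 31.4% and 25.2% at day 4, while its ssRNase coverage went from 8.90% in both replicates to 0 in both.

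The 2 nucleases also differed in the bases they left. Sites with ssRNase calls only were 32.5%, 31.7% and 33.6% G at days 0, 2 and 4, and sites with dsRNase calls only 24.9%, 26.2% and 25.4%. The same order held over all genes, 29.3% to 31.0% against 24.7% to 26.3%.

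With the calls of both nucleases pooled, coverage within the messages was highest on the coding sequence. In the transcript with the longest coding sequence, the mean whole-day coverage of the coding sequence was 29.7%, 24.8% and 33.7% at days 0, 2 and 4, against 15.7%, 13.5% and 15.6% over all genes. The 3′ UTRs had 19.1%, 11.2% and 19.8%, against 8.33%, 5.96% and 9.13%. The 5′ UTRs had 18.3%, 15.5% and 10.4%, against 9.76%, 9.93% and 7.21%. Over the other genes of at most 2000 exonic nt, the coding sequence had 19.2%, 17.6% and 17.6%. The 3′ UTRs of those short genes had 11.9%, 6.97% and 10.8%, and the 5′ UTRs 11.5%, 11.5% and 8.29%. So in the respiratory chain genes the coding sequence and 3′ UTR stood lower at day 2, while the 5′ UTR was lowest at day 4. The 5′ UTR difference to day 0 was -7.88 points, with pairs from -7.85 to -3.60. With the ssRNase alone, the 5′ UTRs of these genes had 14.2%, 14.4% and 7.50% at days 0, 2 and 4. Their coding sequence had 10.7%, 12.1% and 10.5%, so with this nuclease the 5′ UTR was the higher at days 0 and 2.

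The dsRNase coverage of the coding sequence was 17.6% and 19.1% in the day 0 replicates and 27.02% and 21.1% in the day 4 replicates, a mean difference of 5.04 points with pairs from 1.96 to 9.38. It was 2.70 points without replicate 1 of day 4 and 8.64 without replicate 2. The ssRNase coverage of 3′ UTRs was 3.39% and 3.24% at day 0 and 0.902% and 1.61% at day 4. Its whole-day difference of -3.75 points became -2.41 to -1.71 when a replicate was left out.

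The end of the coding sequence stood out at day 4. In the last 50 nt of the coding sequence, the mean dsRNase coverage of the 86 genes was 16.4% and 21.1% at day 0, 18.7% and 12.3% at day 2, and 42.6% and 30.05% at day 4. Both day 4 values lay above the other 4. Over all genes the window had 8.01% and 8.25%, 6.09% and 4.08%, and 10.2% and 8.42%. The mean difference from day 0 to day 4 was 17.6 points, 11.3 without replicate 1 of day 4 and 23.9 without replicate 2. In the window just before, 100 to 51 nt from the end, the values were 22.02% and 17.6% at day 0 and 35.0% and 26.3% at day 4. In the 50 nt that begin with the stop codon they were 18.4% and 19.0% at day 0, and 29.5% and 21.6% at day 4. These windows were chosen after the values along the message had been seen. Neither they nor the window before the start codon were computed for the other short genes, so gene length was not matched.

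Counted by gene, 12, 9 and 29 of the 86 genes had dsRNase calls of both replicates in that last stretch at days 0, 2 and 4. Over all 9489 genes with such a window 5.95%, 2.65% and 7.15% had them. Of 62 genes with a call there at day 0 or 4, 12 (19.4%) had it in both replicates at day 4 and in neither at day 0, against 11.1% of all genes, and 0 had the reverse, against 8.3%. The 12 were Atp5f1, Atp5j2 and Atp5mpl of the ATP synthase, Cox4i1, Cox5b, Cox6b1 and Cox7a2l of complex IV, and Ndufa5, Ndufa8, Ndufb8, Ndufs1 and Ndufs4 of complex I. In Cox4i1, Cox5b and Ndufb8 the whole stretch was covered in both day 4 replicates, whereas in Cox7a2l 8% of it was and in Ndufs1 20%. Another 6 genes, Atp5g3, Cox5a, Cox7b, Ndufa4, Ndufs3 and Uqcr10, had it in both replicates of both days.

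Before the start codon the order was the reverse. In the last 50 nt of the 5′ UTR, over the 69 genes whose 5′ UTR is that long, mean ssRNase coverage was 17.2% and 22.2% at day 0, 19.3% and 18.5% at day 2, and 10.3% and 9.62% at day 4. Both day 4 values lay below the other 4, and the mean difference to day 0 was -9.77 points. Over all genes the values were 7.80% and 7.39%, 7.63% and 8.87%, and 6.16% and 5.39%. Of 28 genes with a call there at day 0 or 4, 7 (25.0%) had it in both replicates at day 0 and in neither at day 4, against 12.3% of all genes, and 1, Cox6b2, had the reverse, against 7.77%.

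The 7 genes were Cox6c, Cox7a2 and Cox7b of complex IV, Uqcrc2 and Uqcrq of complex III, and Ndufa13 and Ndufb6 of complex I. In Cox7a2, Cox7b, Uqcrc2 and Ndufb6 the whole window was covered in both day 0 replicates, in Ndufa13 6% of it. Cox7a2 kept the site in both replicates at day 2, and so did Uqcrq, whose dsRNase coverage there was 94.0% in both replicates at day 4. Ndufc2 and Uqcrfs1 had ssRNase calls of both replicates at days 0 and 4 alike.

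**Figure D5:**
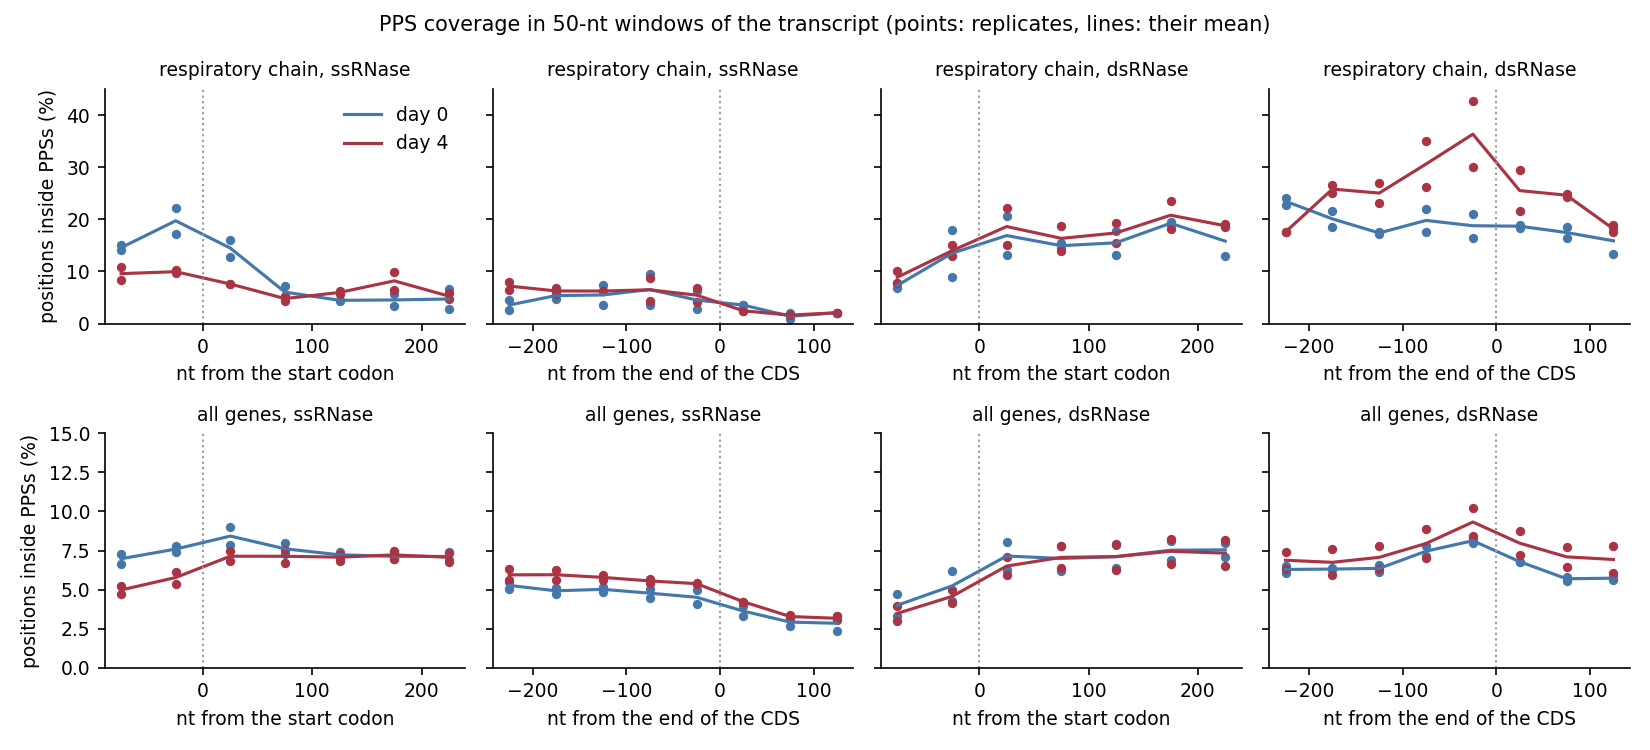
Mean coverage (percentage of positions) in 50-nt windows around the start and stop codons, in nt from the codon, for the respiratory chain genes and all genes, by nuclease and replicate at days 0 and 4; the upper and lower rows have different vertical scales. In the last 50 nt before the stop codon, the day 4 dsRNase values of the respiratory chain genes are 42.6% and 30.05%, against 16.4% and 21.1% at day 0.

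Sites of these messages overlapped between days 0 and 4 more often than those of all genes, and had calls of both replicates more often at day 4. Calls of both replicates stood behind 33.9% of PPSs at day 0 (28.7 to 39.6), 34.8% of those on day 2 (29.4 to 40.7) and 44.4% of those on day 4 (39.0 to 49.9), against 32.3%, 32.2% and 38.4% over all genes. The intervals take each PPS as a unit and do not measure the spread between replicates or genes, and the differences from all genes were not tested. Of the day 0 sites, 58.4% (52.6 to 64.0) overlapped a day 4 site, against 50.4%. The median length was 63, 58 and 64 nt, against 62, 58 and 63 nt.

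Introns of these genes were little covered. The mean intronic coverage was 0.972%, 1.60% and 1.88% at days 0, 2 and 4, against 1.40%, 1.39% and 1.37% over all genes. The difference of 0.912 points between days 4 and 0 became 0.0435 without Cox6b2. Of the PPSs on the gene spans, 22.5%, 32.1% and 24.1% touched an intron and no exon, against 41.7%, 47.1% and 43.1% over all genes. Among genes with at least 500 intronic nt, the highest intronic coverage was 9.58% in Atp5l, 7.59% in Cox5b, both at day 2, and 7.57% in Ndufv1 at day 4. The replicates of these differed widely, with 7.17% and 3.33% in Atp5l, 0% and 7.59% in Cox5b, and 7.57% and 3.05% in Ndufv1.

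Other genes of the pathway were described in lists drawn up by function. The 78 mitochondrial ribosomal protein genes, which serve the subunits made inside the organelle, had medians of 6.68%, 3.98% and 6.2%, with 2 called higher and 8 lower at day 4. Their median change per gene from day 0 to day 4 was -2.97 points, with pairs from -1.90 to -0.923, against 0.646 points over the respiratory chain genes and 0 over all genes. Over the other genes of at most 2000 exonic nt it was -0.990 points, with every pair at 0. Mrps28 went from 28.99% and 13.5% to 0 in both replicates, Mrpl34 from 24.1% and 34.3% to 5.93% and 14.8%, and Mrpl36 from 17.1% and 22.3% to 5.86% in both. The 2 called higher were Mrpl49, from 0% and 5.70% to 16.9% and 23.7%, and Mrps21, from 10.6% in both to 29.1% and 26.3%. Mrpl53 had 0% and 5.32% at day 0 and 30.5% and 0% at day 4, and was not called. The median change of these genes was -1.41 and -1.30 points when either day 0 replicate was left out, -1.76 points without replicate 1 of day 4 and -0.956 points without replicate 2 of day 4.

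Of 28 assembly factors with other symbols, 2 were called higher and 3 lower. Surf1 rose from 11.5% and 12.2% to 22.5% and 18.1%, and Cox11 from 6.89% and 6.82% to 12.2% in both. Cox14 went from 48.7% and 49.2% to 25.2% and 33.7%, Timmdc1 from 5.89% and 7.23% to 0, and Taco1, which activates translation of the mitochondrial Cox1 message, from 13.7% in both to 0% and 4.34%. Among 13 genes of the TCA cycle, which supplies NADH and succinate, 1 was called higher and 2 lower, and their median change of -1.12 points was 0.0661 without replicate 2 of day 4 and -2.63 without replicate 1. Dld, a shared subunit of the dehydrogenase complexes, rose from 14.9% and 15.2% to 25.6% and 25.9%, whereas Idh3a fell from 9.56% and 10.5% to 0% and 0.927%, and Sucla2 from 10.2% and 14.2% to 5.14% and 3.71%. Of 19 genes of electron carriers and coenzyme Q synthesis, 2 were called higher and 0 lower. Coq2, which attaches the side chain of coenzyme Q, rose from 5.34% and 7.20% to 15.1% and 16.1%, and Coq10a from 0 to 7.27% and 10.1%. The shares called in these lists can be read against the 8.55% and 7.3% of all genes given above, and against the 12.4% and 14.6% of genes of at most 2000 exonic nt.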

How the data were processed

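PIP-seq PPS lists of MEL cells at days 0, 2 and 4 were used, 1 list per day. Before deposit, the authors trimmed reads (cutadapt 1.2.1), mapped them to mm10 with TopHat2 2.0.10 with up to 10 genomic hits a read, collapsed duplicate reads, and called PPSs with a modified CSAR Poisson comparison of footprinting with structure-only libraries at a false discovery rate of 5%. The deposited lists hold strand, the call sets behind each merged PPS and a score of at least 5.4, which appears summed over merged calls. Reads placed at several sites affect genes with near copies, and merging gives both replicates and both nucleases the same borders. Coverage of a nuclease or replicate counts the whole merged PPS when it has at least 1 such call. Groups were taken from the titles, since the labels' source names describe the protein treatment in another way.

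PPSs of 20 to 40 nt were left out. Coverage was the percentage of union exonic or intronic nt (GENCODE M21, GRCm38) in same-strand PPSs, computed for all 21938 protein-coding genes with python 3.11.15, numpy 2.4.6 and pandas 2.3.3. The annotated coding sequence ends before the stop codon, which was counted with the 3′ UTR. Genes were called between days, across all genes, when the replicate values did not overlap and the nearest pair differed by at least 5 points. No p-value was computed. Shares of PPSs have Wilson 95% intervals, and intervals cover counting error only. Copies were counted as 30-nt words found elsewhere in the genome. Genes were named as the largest changes and highest day 0 coverage in each complex, the highest intronic coverage, and the top-scoring PPS of each day, and called genes and those of the codon windows were added. The members, gene lists and windows were chosen with earlier results of these data known. Alternatives changed the length filter, the score, replicate support, list size, the transcript, overlap, gene length, near copies, the call threshold and single replicates.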

Additional observations from a re-analysis of the deposited data

Results flagged for a closer look

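Cox5b, a nuclear-encoded subunit of complex IV, moved in opposite directions with the nucleases between days 0 and 4. Its ssRNase coverage went from 6.18% and 8.88% to 0 in both replicates, a mean change of -7.53 points, and its dsRNase coverage from 6.18% in both to 11.2% in both, a mean change of 5.04 points. The difference between the changes was 12.6 points. Ndufa8, an accessory subunit of complex I, showed the opposite order, with ssRNase coverage of 5.34% and 0% at day 0 and 17.1% in both replicates at day 4, a mean change of 14.4 points, and dsRNase coverage of 24.7% and 28.1% at day 0 and 13.01% and 18.7% at day 4, a mean change of -10.6 points. The difference was -25.0 points. Every replicate of a nuclease moved the same way in both genes, and the difference between the nucleases was not tested in either.

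PPSs antisense to the exons of respiratory chain genes, which the comparisons above do not use, numbered 6 at day 0, on 4 genes, and 7 at day 4, on 5 genes, with 3 at day 2. They amount to 2.05%, 1.11% and 2.20% of the sense and antisense PPSs together at days 0, 2 and 4, against 2.67%, 3.36% and 3.02% over all protein-coding genes. Atp5g2 and Sdhaf2 carried them at every day.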

How the results depend on the processing

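Of 23 summary results, the 21 run with at least 50% of a PPS inside the gene, the 4 counts of called genes run with short genes alone, and 22 of the 23 run without genes with many near copies stayed within their spread or 1.5 times their count. The exception was the mean change of complex IV, 5.89 points. No paired analysis was possible because no result comes from a test, and nothing in the labels links equal replicate numbers across days. The cause of the shifts below was not tested. PPSs with calls of both replicates give both replicates the same value by construction. The lists give no read depth per site, so a site that is missing on a day cannot be told from one too shallow to call.

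With PPSs of 20 to 40 nt kept, the median change from day 0 to day 2 was -0.126 points (main value -0.449), 6 genes were higher at day 2, 5 were lower at day 4, the day 0 dsRNase excess was 6.57 points, and the day 4 median changes were -2.36 for assembly factors with other symbols and -3.57 for the TCA cycle. Cox8a reversed to 11.5 points and Sdhd to 2.60. With PPSs at or above the median score, the median changes were -1.77 at day 2 and 2.18 at day 4, 2.57 for complex I and -1.38 for mitochondrial ribosomal proteins, 6 genes were higher at day 2, the day 0 excess was 4.60, the intronic change 1.03, and Ndufa8 reversed to 2.67. With equal numbers of top-scoring PPSs, the day 2 median change was -1.03.

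With PPSs of both replicates, the day 4 median change was 2.65, that of complex V 2.84, of assembly factors with other symbols 0 and of mitochondrial ribosomal proteins -0.768. The dsRNase excess was 2.49, 1.14 and 5.07 at days 0, 2 and 4, the ssRNase change -2.62 in 3′ UTRs and -6.36 before start codons, and 12 genes were higher at day 2 and 24 at day 4. Atp5g2 reversed to 1.25, Ndufa8 to 12.9 and Uqcr11 to -11.5. With exons of the longest coding transcript alone, the median changes were -0.754 at day 2 and 1.62 at day 4, 1.45 for complex I, 4.28 for complex V, -2.31 for electron carriers and coenzyme Q synthesis, -4.93 for the TCA cycle and -4.06 for mitochondrial ribosomal proteins. The dsRNase excess was 10.4, 5.31 and 14.8, and 8 genes were higher and 20 lower at day 2. With a threshold of 10 points, 0 and 4 genes were higher and lower at day 2, and 5 and 4 at day 4. Without Cox6b2, an alternative chosen after seeing the data, the intronic change was 0.0435 and the mean change of complex IV 2.89. That mean was 8.81 with PPSs of 20 to 40 nt kept, 5.93 with equal numbers of top-scoring PPSs and 9.77 with PPSs of both replicates.

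With each replicate left out in turn, the lowest and highest day 4 median changes were 0.295 and 1.73 over all members (highest without day 4 replicate 2), 0.0237 and 1.47 for complex I (likewise), 1.43 and 6.54 for complex IV (highest without day 0 replicate 2), whose mean ran from 7.15 to 9.1, 1.11 and 5.84 for complex III (lowest and highest without day 4 replicates 1 and 2), -2.63 and 0.0661 for the TCA cycle (likewise), 0.602 and 2.74 for complex V (highest without day 4 replicate 2), -1.13 and 0 for electron carriers and coenzyme Q synthesis (0 without day 4 replicate 2), -0.682 and 0 for assembly factors with other symbols (0 without day 0 replicate 1), and -1.76 and -0.956 for mitochondrial ribosomal proteins. Counts of genes higher and lower were 6 to 8 and 16 to 20 at day 2, and 13 to 23 and 12 to 14 at day 4. By the call rule these counts cannot fall when a replicate is left out. The dsRNase excess ran from 3.65 to 4.60, 1.12 to 1.65 and 4.74 to 7.37 at days 0, 2 and 4. The position changes ran from -2.41 to -1.71 (ssRNase, 3′ UTRs) and from 2.70 to 8.64 (dsRNase, coding sequence). Ndufa8 ran from 0.987 to 6.68 and Uqcr11 from -4.68 to 5.93, so both reversed. The changes of Ndufv1, Sdha, Sdhb and Uqcrfs1 also took both signs, depending on the replicate left out. The longest coding transcript and the share of a PPS inside the gene were not run for the codon windows.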
